A study of Homo sapiens with 8 samples.

Results

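The genes described here are 40 interferon-stimulated genes and interferon regulatory factors (IRFs), chosen by symbol from a list of antiviral effectors, RNA sensors, STATs and IRFs. All 40 were among the 35394 gene symbols counted in HCT116 cells, and 32 of them carried enough counts to be tested, of 15006 genes tested in all. HCT116 is a human colorectal carcinoma line of epithelial origin, labelled as carrying a ras mutation. One group of 4 libraries came from cells exposed over 24 h to PZH, short for Pien Tze Huang, a compound remedy of traditional Chinese medicine. The other group of 4 came from cells given DMSO, a solvent, as control. The study's title concerns reactive oxygen species and colorectal cancer growth. The labels state no PZH dose, and they give the 24 h for the PZH libraries only. Nothing states whether the replicates came from separate cultures, so the p-values measure the spread between these libraries, which may be technical.

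PZH libraries held 18144117 to 18868057 counts and DMSO libraries 19288836 to 19917571, so a floor of 3 counts lay at 0.159 to 0.165 CPM in PZH and at 0.151 to 0.156 CPM in DMSO. CPM is a gene's count scaled to a common library size, and fold changes are PZH over DMSO. Levels of members and pathway genes were scaled with TMM factors, which were 0.896 to 0.949 in PZH and 1.09 to 1.10 in DMSO. The floor above and the marker levels below were scaled by total counts without these factors, so their scale differs from that of the members. Of 8 epithelial markers, 7 reached 1 CPM, and their summed level was 2577 to 2918 CPM in PZH and 4011 to 4078 CPM in DMSO. Most of that gap was KRT8, at 897 CPM in PZH and 2053 CPM in DMSO. EPCAM, KRT18, KRT19, KRT20 and VIL1 (1 count in PZH and 4 in DMSO) also averaged lower in PZH. The other way went CDH1, at 226 CPM in PZH and 86.7 CPM in DMSO, and CLDN4, at 210.2 CPM in PZH and 180 CPM in DMSO. Of 12 immune markers 2 reached 1 CPM in any library, and their sum was 0.751 to 2.86 CPM in PZH and 0.674 to 4.72 CPM in DMSO. Plasmacytoid dendritic cells are professional makers of interferon. Of their markers, CLEC4C had 0 counts in PZH and 2 in DMSO, IL3RA 14 and 7, and TCF4 11 and 2. NRP1, which other cells also express, made up most of their sum (6.07 to 10.3 CPM in PZH and 3.01 to 4.25 CPM in DMSO). Fibroblast markers summed to 17.5 to 21.3 CPM in PZH and 11.7 to 14.3 CPM in DMSO, most of it COL1A1, while COL1A2 was at 0 in every library. No endothelial marker reached 1 CPM, and their sum was 0.265 to 0.912 CPM in PZH and 1.09 to 1.68 CPM in DMSO. The part of these markers in the results was not tested. In bulk RNA, fewer cells expressing a gene and less of its RNA per cell cannot be told apart.

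Interferons are secreted proteins that cells release when sensors such as RIG-I and MDA5 detect foreign RNA, through the adaptor MAVS and the factors IRF3 and IRF7. They bind receptors on the same and on neighbouring cells, whose JAK kinases phosphorylate STAT proteins. STAT2 and IRF9 are subunits of the complex ISGF3, which binds interferon-stimulated response elements in promoters and turns on the interferon-stimulated genes. Many of these genes also have a baseline level without infection, which is known to differ between cell lines.

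Most of the tested interferon-stimulated genes on this list were lower in PZH, while 4 of the 5 tested transcription factor genes were higher. Of the 32 tested, 21 (65.6%) were lower and 8 (25.0%) higher at an adjusted p under 0.05 (edgeR, quasi-likelihood F test, Benjamini-Hochberg adjustment over all genes tested). Over all genes tested 40.9% were called lower, 39.3% higher and 80.3% in either direction. The exonuclease gene ISG20 and the transcription factor gene IRF7 rose the most among them, by 21.2-fold and 9.84-fold. The antiviral genes IFIT1 and OAS3 fell the most among them, by 12.8-fold and 11.5-fold. A fall of at least 2-fold was called for 10 of the 32 and a rise of that size for 4, against 18.9% and 15.8% of all genes tested. A fall of at least 4-fold was called for 4 genes and a rise of that size for 2, against 6.07% and 4.54%. The median log2 fold change was -0.57 over the 32 and -0.02 over all genes tested. Without scaling factors both medians moved down, to -0.83 and -0.28. Groups did not overlap in 25 of the 32, against 75.0% of all genes tested. The list was chosen with earlier results of these data known, so its shares are not independent of these data. Of 34 tested interferon-stimulated genes outside the list, 13 were called higher and 14 lower.

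**Figure D1:**
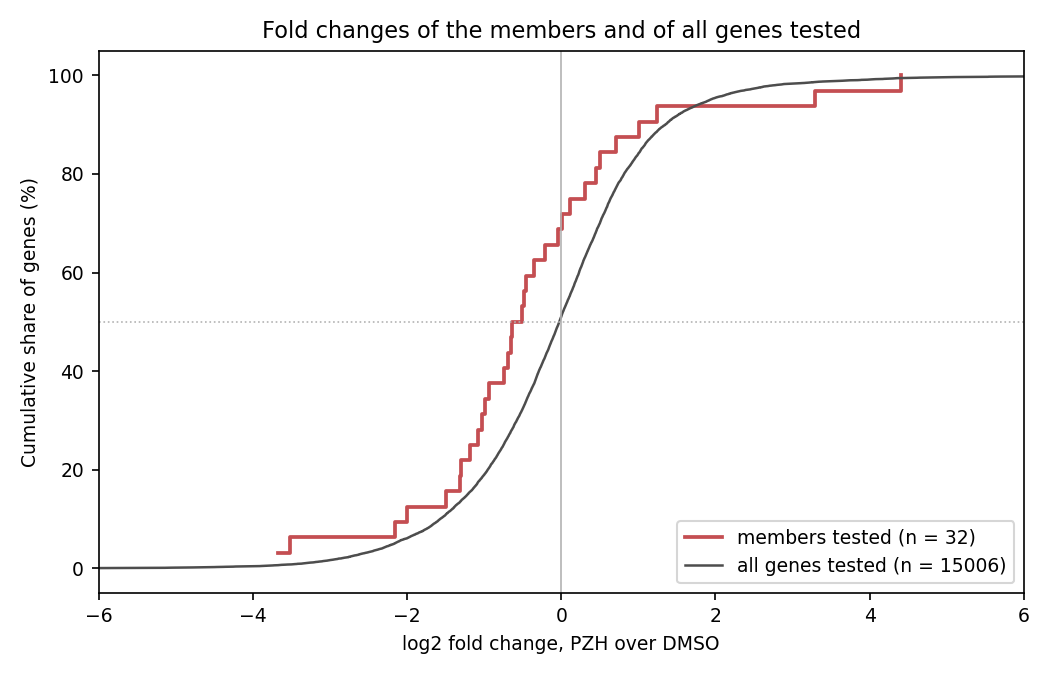
Cumulative share of genes (vertical axis, percent) by log2 fold change of PZH over DMSO (horizontal axis), for the 32 tested members (red steps) and all 15006 genes tested (grey line). The red steps lie left of the grey line over most of their range, with medians of -0.57 and -0.02, and 2 members, IRF7 and ISG20, lie far to the right.

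Counts near the filter limit how far these numbers go. DHX58, IFIT3, MX1, BST2 and IFI27 reached the count minimum in all 4 libraries of DMSO but not of PZH, so a member of this kind that was low in PZH could pass only through the DMSO group. DHX58, IFIT3, BST2 and IFI27 are among the 21 members called lower, while MX1 was not called. IFIT3, BST2 and IFI27 are also among the falls of at least 2-fold, and IFIT3 among those of at least 4-fold. The counts and the median given above include these genes, which adds to the falls. The other 8 members, IRF9, OAS1, OAS2, MX2, IFITM1, IFI44, IFI44L and XAF1, were not tested, and their counts are given with their families. Across PZH libraries no single replicate held the extremes: of the 32 tested members, replicate 2 was highest in 13 and lowest in 7, and replicate 4 was highest in 3 and lowest in 12.

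**Figure D2:**
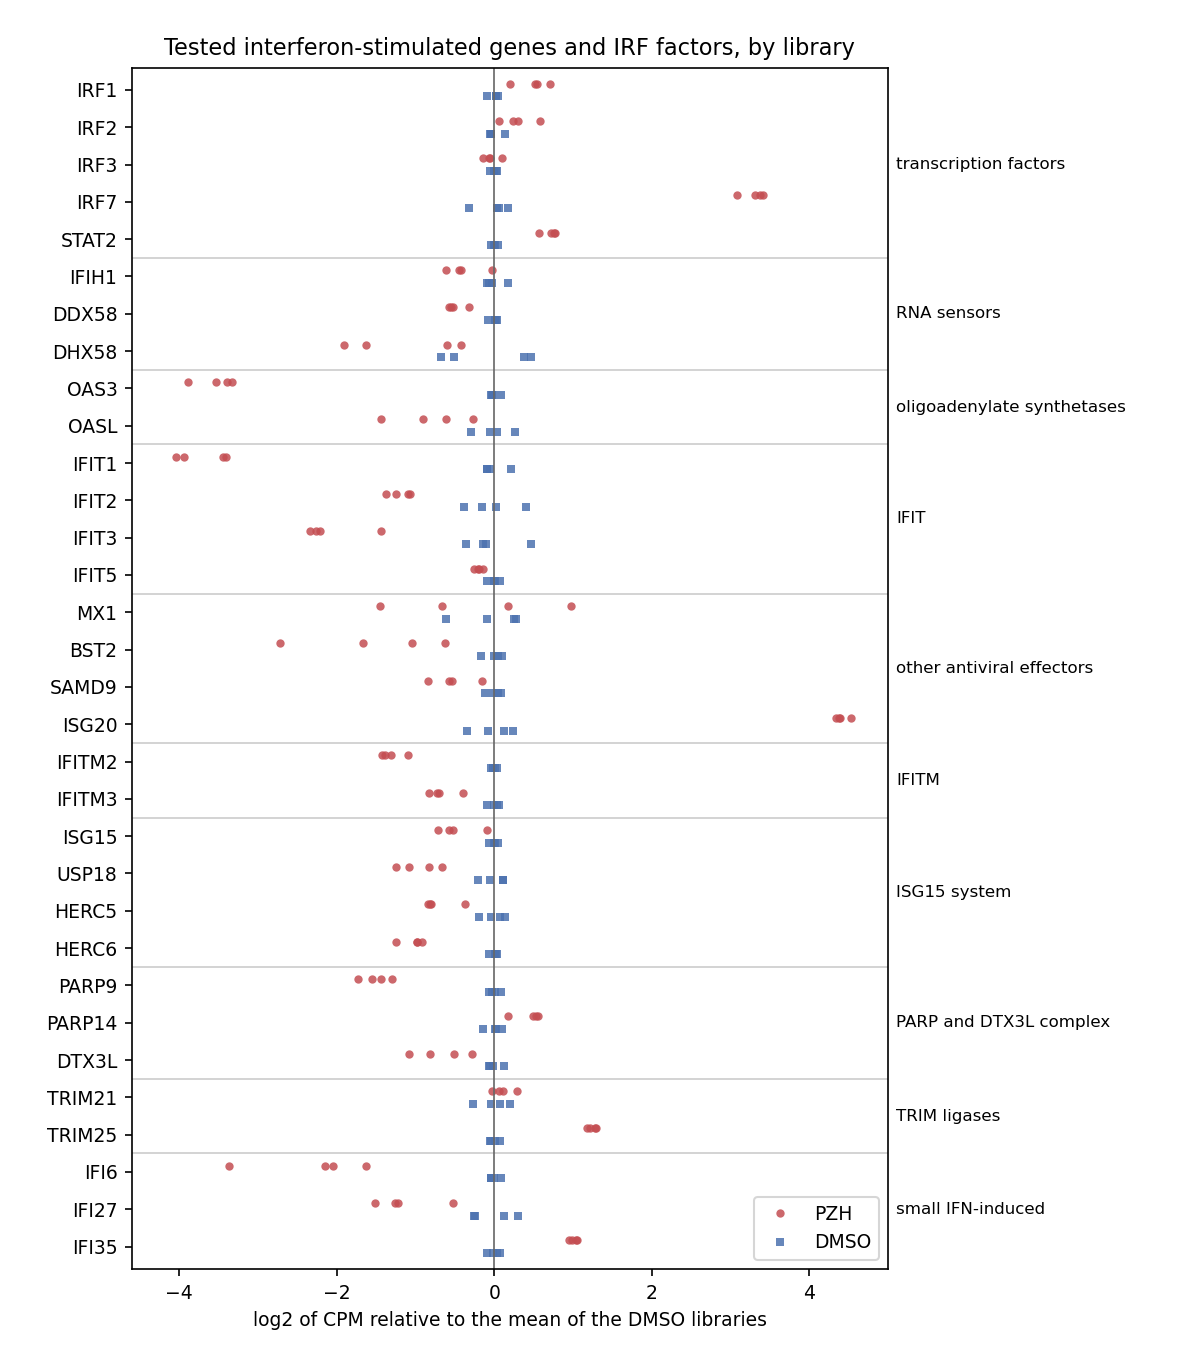
Level of each of the 32 tested members in every library, as log2 of its CPM relative to the mean of the 4 DMSO libraries (horizontal axis). Red circles are PZH libraries and blue squares are DMSO libraries, and grey lines part the families named on the right. IRF7 and ISG20 stand more than 3 units to the right in every PZH library, and OAS3 and IFIT1 more than 3 units to the left.

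The promoters of most members carry the letters that ISGF3 and IRF proteins recognise. RefSeq promoter windows on GRCh38.p14, from 250 bases before to 50 bases after a start site, were found for 30 of the 40 members. None was matched for IRF2, IRF3, IRF7, DHX58, OAS2, OASL, IFIT2, MX2, IFITM2 and USP18. The core of the response element was searched as GAAANNGAAA on both strands. It was present in 21 of the 30 members and in 25 of their 37 windows (67.6%), against 3.57% of 35116 windows of all genes. The gamma-activated site core TTCNNNGAA, a shape that STAT dimers bind, was present in 9 members (27.0% of windows, against 7.66% of all). The kappaB core GGGNNNNTCC was present in 12 members (40.5% of windows, against 22.6% of all). A TTCNNNGAA match reads the same way on both strands, and overlapping matches of one core, or of different cores, were all counted. A match describes letters and is no measure of binding.

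The sequences below show the core (capitals) with up to 10 bases on each side for members called at least 4-fold higher or lower that have a window, for ISG15 and BST2, and for PARP9, DTX3L and PARP14. IFIT3 has 2 windows with 2 cores each, of which 1 core is shown. Each is written 5′ to 3′ on the strand that holds GAAA. OAS3 has a pair of cores, one of them next to the start site. In IFIT1 both cores lie on the strand opposite to the gene. ISG15 and BST2 have overlapping cores that form a run of repeats, and PARP9 and DTX3L share a single core, which runs across the DTX3L start site.
OAS3 (chr12:112938321-112938350, + strand): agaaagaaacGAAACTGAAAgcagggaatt
OAS3 (chr12:112938452-112938481, + strand): agccgggcggGAAAACGAAAccagaaatcc
IFIT1 (chr10:89392497-89392526, - strand): accgaaagggGAAAGTGAAActaaagctag
IFIT1 (chr10:89392510-89392539, - strand): gaaacctaggGAAACCGAAAggggaaagtg
IFIT3 (chr10:89327865-89327894, - strand): gaggaaactgGAAAGTGAAActaatttaaa
IFI6 (chr1:27672329-27672358, - strand): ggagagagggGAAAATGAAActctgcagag
IFI6 (chr1:27672288-27672317, - strand): ggagagagggGAAAATGAAActgcagagtg
IFI6 (chr1:27672266-27672295, - strand): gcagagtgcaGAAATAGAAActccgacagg
ISG15 (chr1:1013374-1013409, + strand): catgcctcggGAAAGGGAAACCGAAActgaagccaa
BST2 (chr19:17405735-17405770, - strand): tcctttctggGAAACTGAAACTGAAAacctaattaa
PARP9 and DTX3L (chr3:122564322-122564351, + strand): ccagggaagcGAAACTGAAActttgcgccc
PARP14 (chr3:122680800-122680829, + strand): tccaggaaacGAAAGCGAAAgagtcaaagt
ISG20 (chr15:88638937-88638966, + strand): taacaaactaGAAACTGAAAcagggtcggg

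The core of ISG20, which rose 21.2-fold, has the same capital letters as that of PARP9 and DTX3L and as one of the cores of OAS3, all of which fell. The whole windows of IFIT1 and ISG20, the steepest fall and the steepest rise, are given next on the strand of the gene, with every core in capitals. In IFIT1 the cores therefore read as TTTC repeats.
IFIT1 (chr10:89392373-89392672, + strand): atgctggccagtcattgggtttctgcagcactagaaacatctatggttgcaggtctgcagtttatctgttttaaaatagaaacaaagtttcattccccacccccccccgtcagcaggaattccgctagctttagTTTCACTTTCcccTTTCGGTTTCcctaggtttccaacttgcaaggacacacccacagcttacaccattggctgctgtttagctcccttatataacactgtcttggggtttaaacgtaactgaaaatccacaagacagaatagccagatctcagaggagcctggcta
ISG20 (chr15:88638766-88639065, + strand): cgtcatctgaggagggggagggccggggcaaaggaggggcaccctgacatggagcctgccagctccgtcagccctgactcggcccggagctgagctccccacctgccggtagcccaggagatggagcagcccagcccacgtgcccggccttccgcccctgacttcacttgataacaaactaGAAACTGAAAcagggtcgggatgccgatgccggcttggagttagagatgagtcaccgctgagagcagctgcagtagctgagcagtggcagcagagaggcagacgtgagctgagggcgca

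Of the 18 tested members with the core, 14 were called lower and 2 higher (ISG20 and PARP14), and MX1 and TRIM21 were not called. Of the 6 tested members with a window and no core, 4 were called higher (IRF1, STAT2, TRIM25 and IFI35) and DDX58 and HERC6 were called lower. The median log2 fold change was -0.65 with the core and 0.60 without it. Of the 8 tested members with no window, 2 were called higher and 5 lower, with a median of -0.84. The group with the core holds IFIT3, MX1, BST2 and IFI27, which passed the filter through DMSO libraries. It also counts PARP9 and DTX3L separately, although they share 1 core. This split by core was made after the values were seen and was not tested. It rests on GAAANNGAAA alone. The windows of TRIM25 and DDX58 hold GAAACGAAA, and that of IFI35 holds GAAATGAAA, on either strand, a closer spacing that was not searched. Among genes outside the list, 373 tested genes had the core, of which 41.8% were called higher and 37.5% lower. Of 9923 others with a window and no core, 3971 were called higher and 4286 (43.2%) lower. The medians of these groups were 0.03 and -0.05.

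**Figure D3:**
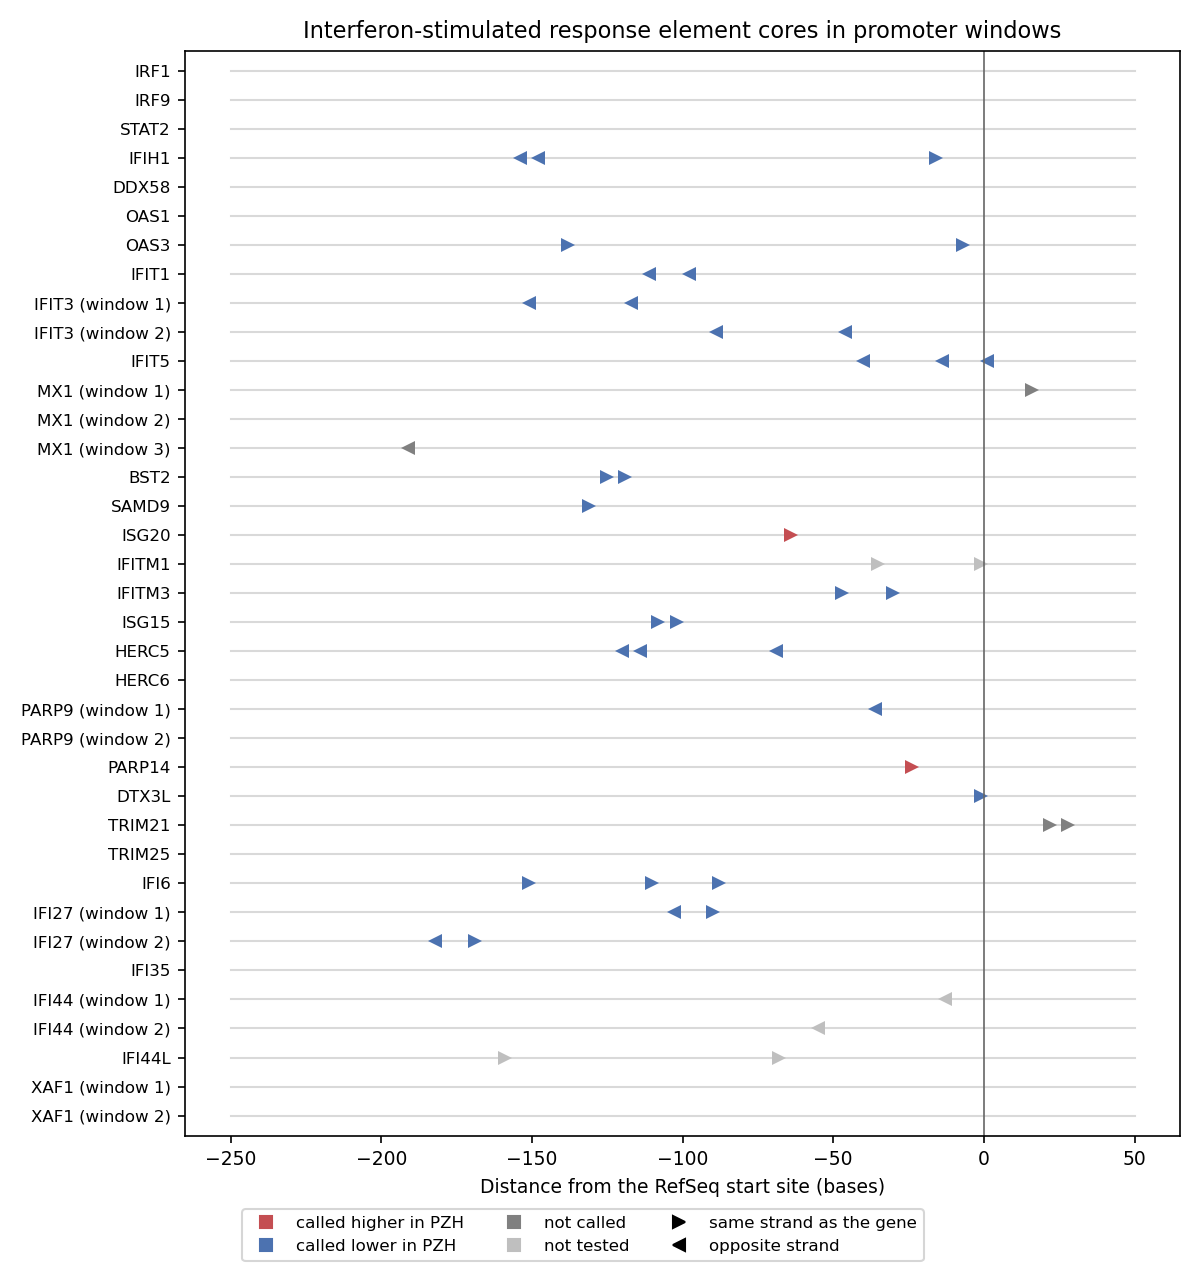
Positions of the response element core in 37 promoter windows of 30 members, as distance from the RefSeq start site in bases (horizontal axis, each grey line 1 window). Triangles point right for the strand of the gene and left for the opposite strand, red marks members called higher in PZH, blue those called lower, and greys those not called or not tested. Most triangles are blue, and the windows of IRF1, STAT2, TRIM25 and IFI35, all called higher, hold none.

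Among the transcription factors, 4 of 5 tested were called higher, against 39.3% of all genes tested. IRF3 was not called, and IRF9 could not be tested. IRF7, a factor that drives interferon genes once phosphorylated, measured 28.1, 34.3, 35.1 and 32.8 CPM in the PZH libraries, in replicate order, against 2.65, 3.74, 3.45 and 3.39 CPM in DMSO. Every PZH library was far above every DMSO library, and the rise was 9.84-fold (log2 fold change 3.30 ± 0.111, SE; edgeR adjusted p = 1.16e-17). STAT2, the ISGF3 subunit, stood at 61.2, 53.8, 61.6 and 59.9 CPM in PZH, against 35.1, 36.1, 36.4 and 37.3 CPM in DMSO. The groups did not overlap, and the rise was 1.63-fold (log2 fold change 0.71 ± 0.0569; edgeR adjusted p = 1.02e-10).

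IRF1, an activator that also responds to interferon gamma and to NF-kB, stood at 12.2, 17.2, 15.4 and 15.1 CPM in PZH, against 9.91, 10.7, 10.8 and 10.9 CPM in DMSO. It rose 1.42-fold with no overlap (log2 fold change 0.50 ± 0.105; edgeR adjusted p = 1.52e-04). An antisense-strand gene, C5orf56, covers 22.0% of its annotated exon bases, with 27 counts in PZH and 39 in DMSO. IRF2, a factor that opposes IRF1 at shared sites, stood at 12.5, 15.9, 13.1 and 11.1 CPM in PZH, against 10.2, 10.3, 10.3 and 11.7 CPM in DMSO. The groups overlapped, since PZH replicate 4 lay under DMSO replicate 4. Its 1.24-fold rise (edgeR adjusted p = 0.0136) was lost without PZH replicate 2 (0.0717), with upper quartile factors (0.0552) and without scaling factors (0.696).

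IRF3, the factor that starts interferon production and is controlled mainly at the protein level, stood at 31.9, 35.7, 32.1 and 30.2 CPM in PZH, against 33.4, 32.1, 34.3 and 34.0 CPM in DMSO. The groups overlapped and the gene was not called (log2 fold change -0.04 ± 0.0639; edgeR adjusted p = 0.559), although leaving out the scaling factors made it lower, at a log2 fold change of -0.30 (edgeR adjusted p = 2.94e-04). BCL2L12 overlaps 19.3% of its exon bases on the opposite strand, with 1676 counts in PZH and 2626 in DMSO. IRF9, the DNA-binding part of ISGF3, had 29 counts over the 4 PZH libraries and 27 over the 4 DMSO libraries. Its levels were 0.283, 0.473, 0.483 and 0.485 CPM in PZH and 0.365, 0.521, 0.140 and 0.239 CPM in DMSO, so the groups overlapped close to the floor. The PZH to DMSO ratio of summed counts, corrected for scaled depth, was 1.36, with a 95% exact interval of 0.775 to 2.38 that covers counting error only. IRF9 shares 43.6% of its 50-base stretches with other annotated genes, nearly all with the overlapping gene AL136295.5 (37 counts in PZH and 31 in DMSO), and how reads were divided between them is not known here. Whether the counting used strand is likewise not stated, which touches every pair of opposite-strand genes named here.

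**Figure D4:**
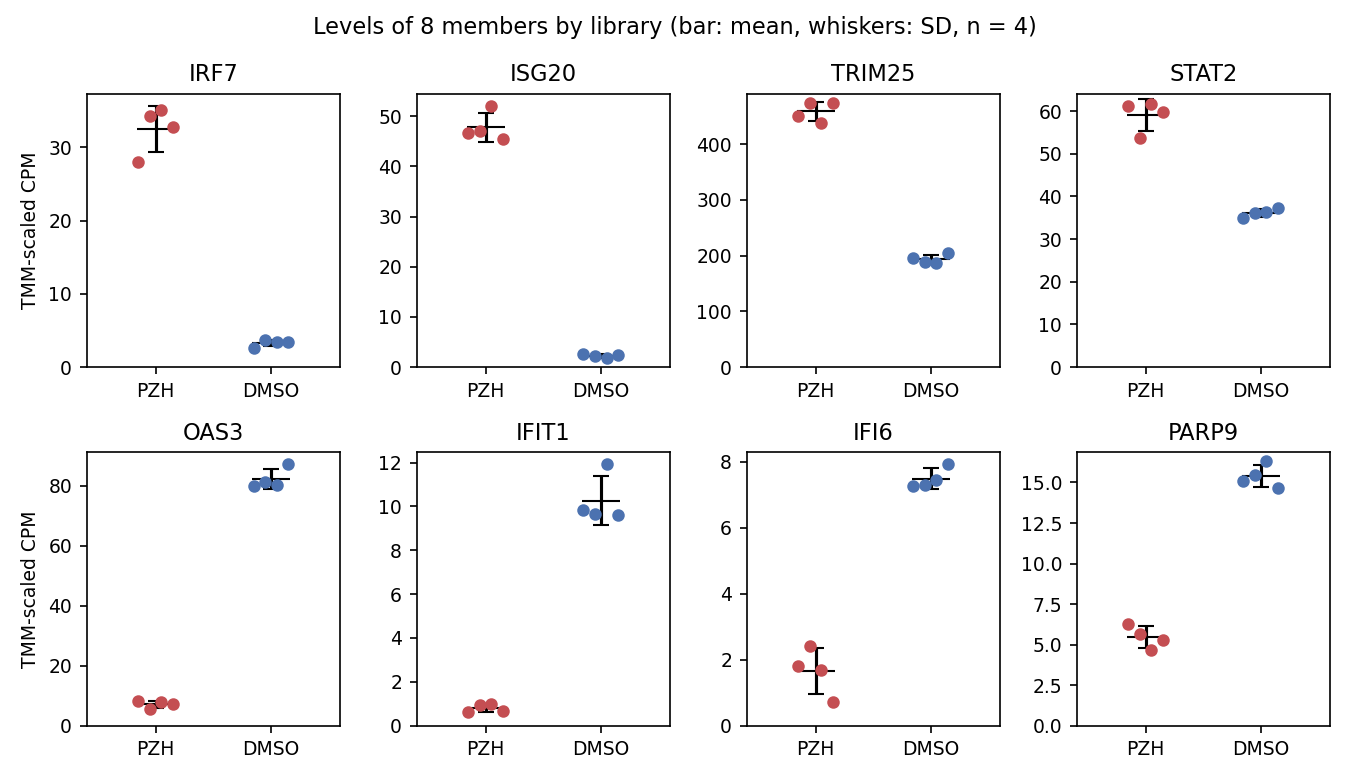
TMM-scaled CPM (vertical axes, from 0) of 8 members in PZH (red) and DMSO (blue), 1 point per library, with the mean as a bar and the SD as whiskers (n = 4 per group). IRF7, ISG20, TRIM25 and STAT2 in the upper row are higher in PZH, and OAS3, IFIT1, IFI6 and PARP9 in the lower row are lower, with no overlap between groups in any panel.

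The cytosolic RNA sensors were all called lower, by modest folds, against 40.9% of all genes tested called lower. DDX58, which encodes RIG-I, stood at 11.9 ± 1.00 CPM in PZH and 16.6 ± 0.607 CPM in DMSO (mean ± SD, n = 4 per group here and below), a 1.40-fold fall with no overlap (edgeR adjusted p = 3.86e-05). IFIH1, which encodes the long-RNA sensor MDA5, stood at 8.94, 5.97, 6.71 and 6.78 CPM in PZH, against 10.3, 8.66, 8.89 and 8.56 CPM in DMSO. Its groups overlapped through PZH replicate 1, and its fall (log2 fold change -0.36 ± 0.129; edgeR adjusted p = 0.0152) was lost without PZH replicate 2 (0.0576) or DMSO replicate 1 (0.0594). DHX58 encodes LGP2, a relative that lacks the signalling domain and tunes the other sensors. It had only 31 counts in PZH and 78 in DMSO, and its groups overlapped. The count minimum was reached in 2 PZH and 4 DMSO libraries, so it passed the filter through DMSO. The 1.98-fold fall of DHX58 (edgeR adjusted p = 0.0291) was lost on leaving out PZH replicate 2 or 4, or DMSO replicate 2 or 3 (0.0859 to 0.108).

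Oligoadenylate synthetases make the short nucleotide chains that activate RNase L, which cuts viral and cellular RNA. OAS3 stood at 8.21, 5.55, 7.79 and 7.09 CPM in PZH, against 79.9, 81.4, 80.3 and 87.2 CPM in DMSO. The groups were widely separated, and the fall was 11.5-fold (log2 fold change -3.52 ± 0.0815; edgeR adjusted p = 1.68e-20). OASL, a relative without synthetase activity that aids RIG-I, stood at 1.96 ± 0.636 CPM in PZH and 3.28 ± 0.516 CPM in DMSO. It fell 1.67-fold with a slight overlap (edgeR adjusted p = 0.00477), a call lost when PZH replicates 3 and 4 were both left out (0.116). OAS1 had 3 counts in PZH and 31 in DMSO, of which 18 were in DMSO replicate 1, a ratio of 0.122 with a 95% exact interval of 0.0239 to 0.392. OAS2 had 12 counts in PZH and 13 in DMSO, and the interval of the ratio (1.17) ran between 0.486 and 2.77.

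IFIT proteins bind foreign or incompletely capped RNA and block its translation. All 4 of their genes were called lower, against 40.9% of all genes tested. IFIT1 stood at 0.623, 0.945, 0.967 and 0.666 CPM in PZH, against 9.86, 9.66, 11.9 and 9.61 CPM in DMSO. The groups lay far apart, and the fall was 12.8-fold (log2 fold change -3.67 ± 0.183; edgeR adjusted p = 1.56e-14). IFIT3, which binds and stabilises IFIT1, stood at 0.509, 0.532, 0.483 and 0.909 CPM in PZH, against 1.92, 2.22, 2.28 and 3.39 CPM in DMSO. It fell 4.01-fold without overlap (edgeR adjusted p = 2.07e-06). IFIT3 reached the count minimum in 1 PZH and 4 DMSO libraries, so it passed the filter through DMSO. IFIT2 fell 2.27-fold, to 1.17 ± 0.111 CPM in PZH, against 2.66 ± 0.631 CPM in DMSO (edgeR adjusted p = 1.08e-04). IFIT5 fell only 1.15-fold, to 26.5 ± 0.870 CPM in PZH, against 30.5 ± 1.47 CPM in DMSO (edgeR adjusted p = 0.00649), although its window holds 3 cores of the response element. RefSeq places the start sites of IFIT1 and IFIT5 21945 bases apart on the same strand.

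Among the other antiviral effectors, 1 of 4 tested rose and 2 fell, against 39.3% and 40.9% of all genes tested. ISG20, which degrades single-stranded RNA, stood at 46.8, 47.0, 52.0 and 45.4 CPM in PZH, against 2.65, 2.13, 1.77 and 2.44 CPM in DMSO. The groups were widely separated, and the rise of 21.2-fold was the steepest of all members (log2 fold change 4.41 ± 0.102; edgeR adjusted p = 1.57e-20). SAMD9, which restricts poxviruses, stood at 11.8 ± 2.36 CPM in PZH and 16.8 ± 1.04 CPM in DMSO, a 1.42-fold fall (edgeR adjusted p = 3.09e-04). BST2, or tetherin, which holds budding virus at the cell surface, had 20 counts in PZH and 64 in DMSO. It reached the count minimum in 0 PZH and 4 DMSO libraries, so it could pass the filter only through DMSO. Its 2.50-fold fall (edgeR adjusted p = 0.00562) was lost when PZH replicates 1 and 2 were both left out (0.150). MX1, a GTPase that blocks influenza virus, stood at 0.509, 0.295, 0.906 and 1.58 CPM in PZH and 0.959, 0.757, 0.978 and 0.526 CPM in DMSO. The groups overlapped widely and MX1 was not called (log2 fold change 0.02 ± 0.403; edgeR adjusted p = 0.972). Its relative MX2 had 2 counts in PZH and 0 in DMSO, both at or under the floor.

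IFITM proteins sit in membranes and hinder the fusion of viral envelopes. IFITM3 stood at 99.8, 135, 109 and 107 CPM in PZH, against 166, 182, 184 and 176 CPM in DMSO. It fell 1.57-fold without overlap (log2 fold change -0.65 ± 0.0664; edgeR adjusted p = 5.77e-09). IFITM2 stood at 21.3 ± 2.31 CPM in PZH and 52.3 ± 1.06 CPM in DMSO, a 2.46-fold fall (edgeR adjusted p = 4.26e-14). IFITM1 had 18 counts in PZH and 53 in DMSO, a ratio of 0.429 with a 95% exact interval of 0.236 to 0.744. The 3 genes are near copies: 32.0% of the 50-base stretches of IFITM1, 34.1% of those of IFITM2 and 17.4% of those of IFITM3 occur in another annotated gene. The rule by which the authors' counting divided such reads is not stated, so their separate values are uncertain.

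ISG15 is a ubiquitin-like protein that is joined to other proteins. The genes ISG15, HERC5, HERC6 and USP18 were all called lower, against 40.9% of all genes tested. ISG15 stood at 20.9 ± 4.18 CPM in PZH and 28.6 ± 0.946 CPM in DMSO, a 1.37-fold fall (edgeR adjusted p = 1.80e-04). PZH replicate 2, at 26.9 CPM, lay just under the lowest DMSO library, at 27.3 CPM. HERC5, the main ligase that attaches ISG15 in human cells, fell 1.62-fold, to 10.9 ± 1.82 CPM in PZH, against 17.7 ± 1.71 CPM in DMSO (edgeR adjusted p = 4.46e-06). HERC6, whose mouse counterpart serves as the ISG15 ligase, fell 2.03-fold, to 4.87 ± 0.474 CPM in PZH, against 9.91 ± 0.311 CPM in DMSO (edgeR adjusted p = 5.59e-08). USP18, which removes ISG15 and dampens the interferon receptor, fell 1.91-fold, to 2.69 ± 0.477 CPM in PZH, against 5.16 ± 0.538 CPM in DMSO (edgeR adjusted p = 2.97e-05). USP18 shares 23.4% of its 50-base stretches with other genes, nearly all with USP41, which had 0 counts in PZH and 19 in DMSO.

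PARP9 and DTX3L form a complex that joins ubiquitin and ADP-ribose to proteins, and PARP14 is a neighbouring ADP-ribosyltransferase. PARP9 stood at 6.28, 5.67, 4.65 and 5.27 CPM in PZH, against 15.1, 15.5, 16.3 and 14.7 CPM in DMSO, a 2.81-fold fall without overlap (edgeR adjusted p = 1.98e-11). DTX3L stood at 17.2, 9.86, 14.7 and 11.9 CPM in PZH, against 22.8, 20.3, 20.1 and 20.7 CPM in DMSO, a 1.56-fold fall (edgeR adjusted p = 3.58e-05). RefSeq gives PARP9 a start site 38 bases from that of DTX3L, on the opposite strand, and another 446 bases from it, whose window holds 0 cores. Their exons overlap by 217 bases. PARP14 went the other way, at 46.2, 35.5, 45.5 and 44.2 CPM in PZH, against 31.9, 33.7, 31.6 and 28.4 CPM in DMSO. It rose 1.36-fold without overlap (log2 fold change 0.45 ± 0.0763; edgeR adjusted p = 1.31e-05). PZH replicate 2 was the lowest PZH library for both DTX3L and PARP14.

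The TRIM proteins are RING-type ubiquitin ligases. TRIM25, which attaches ubiquitin to RIG-I and ISG15 to other targets, stood at 450.2, 474, 438 and 473 CPM in PZH, against 195, 189, 187 and 205 CPM in DMSO. The groups lay far apart, and the rise was 2.36-fold (log2 fold change 1.24 ± 0.0482; edgeR adjusted p = 1.67e-16). TRIM25 held 31042 of the 67551 counts of all members in PZH and 16586 of 73307 in DMSO. The members' summed share of a library was 0.0887% to 0.0934% in PZH and 0.0926% to 0.0949% in DMSO. TRIM21, a cytosolic antibody receptor, stood at 15.4, 19.3, 16.9 and 16.4 CPM in PZH, against 13.1, 15.3, 18.0 and 16.5 CPM in DMSO. The groups overlapped and TRIM21 was not called (log2 fold change 0.11; edgeR adjusted p = 0.308).

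The last family holds small interferon-induced proteins, of which 1 of 3 tested rose and 2 fell, against 39.3% and 40.9% of all genes tested. IFI6, an inner-membrane and endoplasmic reticulum protein that limits flaviviruses and cell death, stood at 1.81, 2.42, 1.69 and 0.727 CPM in PZH, against 7.26, 7.29, 7.45 and 7.93 CPM in DMSO. It fell 4.47-fold without overlap (log2 fold change -2.16 ± 0.205; edgeR adjusted p = 1.85e-09). IFI27, a mitochondrial protein, had 36 counts in PZH and 97 in DMSO and fell 2.12-fold (edgeR adjusted p = 0.00499). That call was lost when PZH replicates 1 and 2 were both left out (0.0874). IFI27 reached the count minimum in 1 PZH and 4 DMSO libraries, so it passed the filter through DMSO. IFI35, a partner of the protein NMI, rose 2.01-fold, to 13.2 ± 0.452 CPM in PZH, against 6.57 ± 0.323 CPM in DMSO (edgeR adjusted p = 5.19e-09). IFI44 had 22 counts in PZH and 13 in DMSO, a ratio of 2.14 with a 95% exact interval of 1.03 to 4.62. IFI44L had 11 counts in PZH (0, 4, 5 and 2 in replicate order) and 0 in DMSO, so the groups overlapped at 0. Against a floor of 3 counts over the DMSO group the ratio was 4.63, a value that leaves out counting error in PZH. XAF1, which binds the caspase inhibitor XIAP, had 3 counts in PZH and 0 in DMSO, both at or under the floor. With no filter on low counts, IFI44L was called higher (edgeR adjusted p = 0.00536) and OAS1 lower (0.00342), and IFITM1 just missed the threshold (0.0506).

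The rest of the pathway was read from lists of ligands, receptors, adaptors, inhibitors and other target genes. Of 21 interferon ligand genes 12 were in the table and 1 could be tested; together the 12 had 53 counts in PZH and 28 in DMSO. IFNB1, which encodes interferon beta, had 3 counts in PZH and 0 in DMSO. IFNE, an interferon of epithelia, accounted for 49 of the PZH counts and 22 of the DMSO counts. Its groups overlapped, and its 2.77-fold rise (edgeR adjusted p = 0.0121) was lost without PZH replicate 4 (0.0743) or DMSO replicate 1 (0.0504). IFNE reached the count minimum in 3 PZH libraries and 1 DMSO library, so it passed the filter mainly through PZH.

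Receptor and kinase genes were called higher in 7 of 10 cases and lower in 3, against the 39.3% and 40.9% of all genes tested. The kinase JAK1 rose 2.21-fold, to 253 ± 22.7 CPM in PZH, against 115 ± 2.68 CPM in DMSO (edgeR adjusted p = 7.61e-15). The interferon gamma receptor genes IFNGR1 and IFNGR2 rose 2.03-fold and 1.87-fold, and IFNLR1, which binds interferon lambda, rose 1.89-fold. TYK2 rose 1.24-fold, a call lost without scaling factors (edgeR adjusted p = 0.390). The type I receptor genes went down: IFNAR2 fell 2.08-fold, to 0.721 ± 0.130 CPM in PZH, against 1.51 ± 0.283 CPM in DMSO (edgeR adjusted p = 0.00200). IFNAR1 stood at 60.0 ± 3.49 CPM in PZH and 65.6 ± 2.77 CPM in DMSO (edgeR adjusted p = 0.0332), a call lost with RLE factors (0.0773), with DESeq2 (0.104) and on leaving out 1 library in 5 of 8 cases (0.0649 to 0.109).

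**Figure D5:**
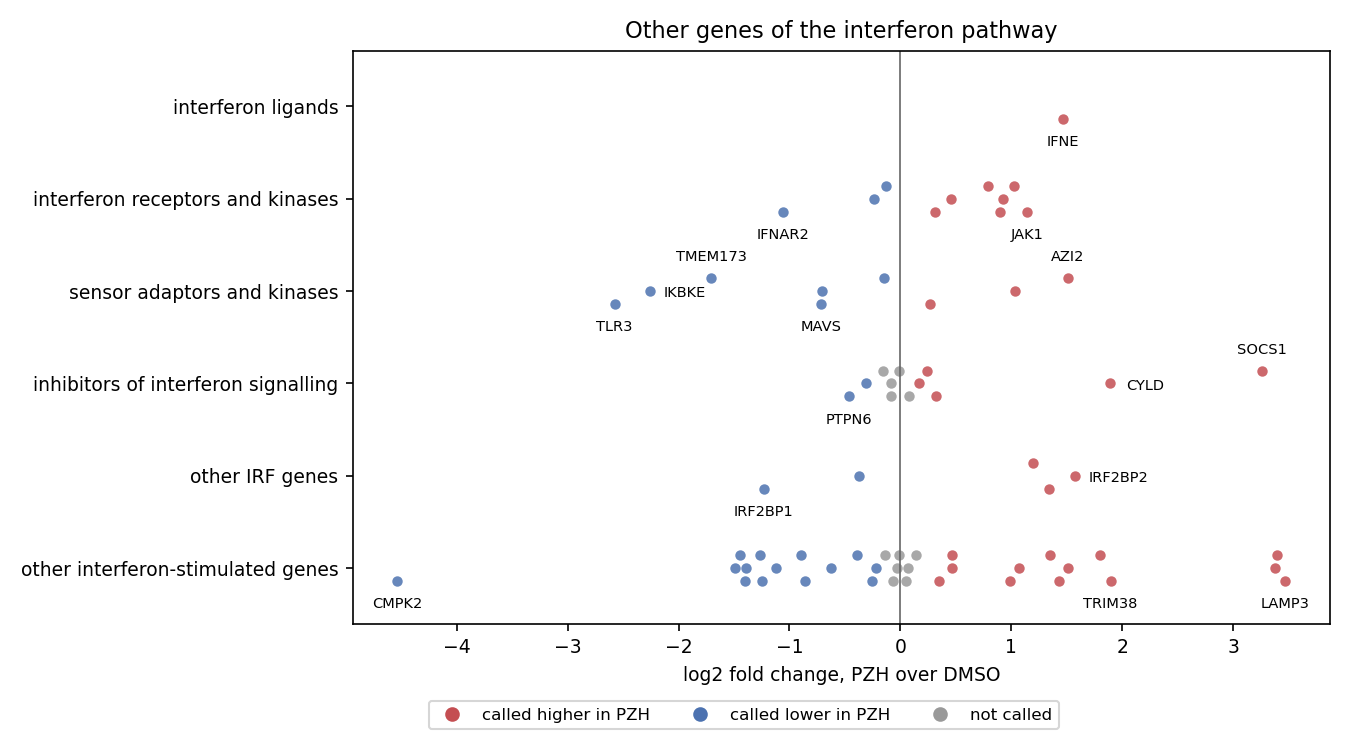
Log2 fold change of PZH over DMSO (horizontal axis) for each tested gene on 6 lists of the interferon pathway outside the members. Red points were called higher in PZH, blue points lower, and grey points were not called. Receptor and kinase genes lie mostly to the right, TLR3, IKBKE and TMEM173 among the sensor adaptors and kinases lie to the left, and SOCS1 lies at 3.26.

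Sensor adaptors and their kinases were called lower in 6 of 9 cases and higher in 3, where over all genes tested 40.9% were called lower and 39.3% higher. TMEM173, which encodes STING, the adaptor for cytosolic DNA, fell 3.26-fold, to 5.88 ± 0.717 CPM in PZH, against 19.1 ± 1.76 CPM in DMSO (edgeR adjusted p = 1.64e-12). MAVS, the adaptor of the RNA sensors, fell 1.64-fold, to 178 ± 7.93 CPM in PZH, against 291 ± 2.56 CPM in DMSO (edgeR adjusted p = 1.28e-12). AZI2, an adaptor of the kinase TBK1, and TICAM1, the adaptor of the receptor TLR3, rose 2.85-fold and 2.05-fold. TBK1, the kinase that phosphorylates IRF3, rose 1.21-fold (edgeR adjusted p = 1.10e-04), a call lost without scaling factors (0.848). Outside the rule for naming genes and picked once its value was seen, the RNA receptor gene TLR3 fell 5.96-fold (35 counts in PZH and 266 in DMSO). The kinase gene IKBKE, picked likewise, fell 4.80-fold (56 counts in PZH and 340 in DMSO). TLR3 and IKBKE reached the count minimum in all 4 DMSO libraries but in only 1 and 2 PZH libraries, so both passed the filter through DMSO. CGAS, the DNA sensor upstream of STING, had 8 counts in PZH and 2 in DMSO.

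Inhibitors of interferon signalling were called higher in 5 of 12 cases and lower in 2, against 39.3% and 40.9% of all genes tested. SOCS1, a feedback inhibitor of JAK kinases, stood at 13.4, 19.1, 16.1 and 16.7 CPM in PZH, against 1.69, 2.04, 1.63 and 1.43 CPM in DMSO. It rose 9.57-fold without overlap (log2 fold change 3.26 ± 0.148; edgeR adjusted p = 2.88e-15). The deubiquitinase CYLD rose 3.71-fold and the phosphatase PTPN6 fell 1.38-fold. PTPN11, another phosphatase, rose 1.18-fold (log2 fold change 0.24), but its value was -0.02 and not called without scaling factors (edgeR adjusted p = 0.705). Of 5 tested genes among the other IRFs and their partners, IRF5 and the corepressor IRF2BP2 rose 2.54-fold and 2.97-fold, and IRF2BP1 fell 2.35-fold.

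Of 44 interferon-stimulated genes outside the members, 34 were tested. Of these 13 were called higher and 14 lower, shares near the 39.3% and 40.9% of all genes tested, with a median log2 fold change of -0.02. The lysosomal membrane gene LAMP3 stood at 48.1 ± 3.52 CPM in PZH and 4.33 ± 0.442 CPM in DMSO, an 11.1-fold rise (edgeR adjusted p = 9.99e-20). The ubiquitin ligase TRIM38 and the nuclear body gene SP100 rose 3.72-fold and 2.55-fold, and the surface protein gene LY6E fell 2.82-fold. CMPK2, a mitochondrial nucleotide kinase gene singled out after its value was seen, had 5 counts in PZH and 159 in DMSO (log2 fold change -4.53 ± 0.457; edgeR adjusted p = 4.93e-09). It reached the count minimum in 4 DMSO and 0 PZH libraries, so it could pass the filter only through DMSO. Also picked once their values were seen, GBP3, a guanylate-binding protein gene, rose 10.5-fold (338 counts in PZH and 40 in DMSO), and EPSTI1 rose 10.4-fold (136 counts in PZH and 16 in DMSO). EPSTI1 reached the count minimum in 4 PZH and 0 DMSO libraries, so it could pass only through PZH. GBP3 reached it in 4 PZH and 2 DMSO libraries.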

How the data were processed

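The deposited table held raw counts per gene symbol for 8 libraries of HCT116 cells, made from poly(A) RNA, per the labels' protocols. The tools listed in the submitters' processing notes, with no role stated, are HISAT2 2.1.0, DESeq 1.28.0, FastQC 0.11.5 and StringTie 1.3.3b. Genome build, annotation and use of strand were not given in the sources used here. No column lacked a sample (0).

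Members were matched by symbol. Members and lists were chosen with earlier results of these data known. Counts were filtered with filterByExpr (minimum count 10, minimum total 15), scaled with TMM and tested with the quasi-likelihood F test of edgeR 4.0.16 in R 4.3.3, adjusted by Benjamini-Hochberg over 15006 genes at 0.05. The standard error of a log2 fold change is its size over the root of the F statistic. The test was also run on simulated data in which a small part of the genes changed, equally in both directions. In the real data 80.3% of genes were called, so that run cannot show how scaling and test perform with so many changes. Ratios for untested genes carry 95% exact intervals, which cover counting error only, as does the floor of 3 counts.

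All members were described. Library values were to be given for members called at least 4-fold changed and for IRF and STAT genes, and means for the rest; some further members are also shown by library. From each pathway list up to 4 called genes with the smallest p were named, plus 10 genes fixed by name. Some genes that this rule names are not reported here. MB21D1 was matched as CGAS and DDX58 as RIGI through RefSeq synonyms. Promoter letters came from RefSeq (GRCh38.p14), and shared 50-base stretches and exon overlaps from GENCODE 29, with Python 3.11.15. Proteins were not analysed here. No pair of replicates agreed within counting noise. Their spread relative to that noise (chi-square per degree of freedom) was 2.39 to 2.81 for DMSO pairs. It was 4.03 for PZH replicates 3 and 4 and 8.33 to 12.3 for the other PZH pairs. The fit used a shared estimate of spread for both groups. Alternatives were other scaling factors, filters and thresholds, robust fitting, limma 3.58.1, DESeq2 1.42.0, a replicate block, left-out libraries and left-out abundant genes.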

Additional observations from a re-analysis of the deposited data

Results flagged for a closer look

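Of 116 groups of 4 libraries examined, 4 held a library whose gap to the nearest other exceeded Dixon's critical share of the group's range. Chance gives such a gap in about 1 in 20 groups. HERC5 measured 13.6 CPM in PZH replicate 2, and the next PZH library 10.1 CPM. IFIT3 measured 0.909 CPM in PZH replicate 4, and the next PZH library 0.532 CPM. IFIT1 measured 11.9 CPM in DMSO replicate 3, and the next DMSO library 9.86 CPM. IRF2 measured 11.7 CPM in DMSO replicate 4, and the next DMSO library 10.3 CPM. HERC5, IFIT3 and IFIT1 kept their calls in every alternative run, and IRF2 did not.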

How the results depend on the processing

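Members called higher numbered 8, and 7 to 8 with 1 library left out and 7 to 9 under the other alternatives. Members called lower numbered 21, and 19 to 22 and 18 to 22 in the same order. Over all genes, 5901 were called higher (5835 to 5991 with 1 library left out) and 6143 lower (6026 to 6217). Without scaling factors, 7 members were higher and 22 lower, and 4473 and 7670 of all genes. No large shift shared by same-numbered libraries was seen. Same-numbered deviations correlated at 7.36e-04 to 0.0113 over 4 pairs, and 1 of 4 PZH libraries correlated best with its own number. These values cannot tell whether same-numbered libraries were handled together. A fit with the replicate block called 8 members higher and 21 lower. Of 669 member values under alternatives, 649 kept their call, 19 lost it and 1 (IRF3) gained it. The lost calls were those of IRF2, IFIH1, DHX58, OASL, BST2 and IFI27. PTPN11 turned to a log2 fold change of -0.0174 without scaling factors. With 3 bases in the middle of the response element, 5 members held the core, against 21. The cause of these changes was not tested. Low counts limit DHX58, BST2, IFI27 and the 8 untested members most.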
